A study of Mus musculus with 20 samples.

Results

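GABA-A receptors are chloride channels opened by the inhibitory transmitter GABA, and each one is a ring assembled from alpha, beta and a further kind of subunit. The 8 genes described here, Gabra2, Gabra3, Gabra4, Gabra5, Gabrb1, Gabrb2, Gabrg1 and Gabrd, encode alpha, beta, gamma and delta subunits. They were chosen by symbol, and all 8 were found among the 55487 rows of the prefrontal cortex count table and, through their Ensembl identifiers, among the 57180 rows of the hippocampal table. Each passed the filter on low counts in both tissues. The remaining 11 genes of the family are given only as counts, apart from 2 rho subunit genes.

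The subunit mix sets where a receptor sits and how it works. Receptors that hold alpha2 or alpha3 gather at synapses, on the scaffold protein gephyrin, and pass brief currents when a presynaptic cell releases GABA. Receptors that hold alpha5, or alpha4 together with delta, lie largely outside synapses, answer to low ambient GABA and carry a sustained (tonic) current. The delta subunit takes the place of gamma in its receptors and makes them sensitive to neurosteroids, while beta subunits are found in both kinds of receptor. In forebrain, alpha5 is best known from hippocampal pyramidal cells, and alpha4 with delta from dentate granule cells.

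RNA was measured by poly(A)-selected sequencing in wild-type C57/BL6 mice aged 2 to 6 months. Males injected into the peritoneum with 5 mg/kg lipopolysaccharide, called LPS, gave 4 prefrontal cortex libraries, and males given 0.9% saline gave the other 4, with dissection 24 hours later. LPS comes from the outer wall of bacteria and sets off an inflammation of the whole body. Hippocampal libraries, 6 for each treatment, came from mice that had received nicotine, which opens nicotinic acetylcholine receptors, at 0.2 mg/kg or 0.9% saline, also 24 hours before, with no sex or route given in the labels. The labels name each tissue as a batch of its own (1 for prefrontal cortex, 2 for hippocampus), so a difference between tissues and a difference between batches cannot be told apart.

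Library totals were 39871000 to 42924749 counts with LPS and 36371084 to 46106526 with saline in prefrontal cortex, and 53145736 to 62982229 with nicotine and 51969343 to 68196280 with saline in hippocampus. Every member had at least 768 counts in each library. For 4 of the 8 cortical libraries (2L, 4L, 6L and 8L), title and treatment label give the opposite treatment to the column name that the description quotes. Libraries were grouped by column name, which makes LPS Samples 2L, 4L, 5L and 7L and saline Samples 1L, 3L, 6L and 8L. With that grouping Lcn2, an acute-phase gene, stood at 254 to 367 CPM with LPS and at 0.676 to 13.5 CPM with saline. The labelled tissues were checked on 10 markers of dentate granule cells, a hippocampal cell type, whose summed level was 405 to 838 CPM over the hippocampal libraries and 335 to 478 CPM over the cortical ones. Prox1 stood at 87.5 and 110.0 CPM in nicotine and saline hippocampus and at 11.0 and 11.8 CPM in LPS and saline cortex. C1ql2, Dsp, Tdo2, Lct and Dock10 also had higher means in both hippocampal groups than in either cortical group. Pdzd2 ran the other way. It stood at 54.2 and 58.3 CPM in nicotine and saline hippocampus and at 122 and 114 CPM in LPS and saline cortex. The means of C1ql3, Npnt and Stxbp6 were not ordered by tissue. The summed level thus did not separate the tissues. Prox1 and the genes named with it were picked out by these same means, so their order is no separate check of the labelled tissue. Levels are CPM, counts divided by TMM-adjusted library totals and put on 1 common scale, unless RPKM is named, which also divides by exon length in kilobases and is used wherever genes are compared with each other.

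Within the alpha family, the receptors differ in their answer to classical benzodiazepines, which need a histidine at 1 place in the alpha subunit. The coding stretches below, read from the GRCm38 (mm10) genome through the GENCODE vM21 transcripts and written 5′ to 3′ on the coding (minus) strand, show that codon in capitals. They lie in exon 5 of Gabra2 (chr5:71014487-71014525), exon 5 of Gabra3 (chrX:72501150-72501188), exon 4 of Gabra4 (chr5:71641134-71641172) and exon 5 of Gabra5 (chr7:57488873-57488911).
Gabra2: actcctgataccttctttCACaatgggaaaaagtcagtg
Gabra3: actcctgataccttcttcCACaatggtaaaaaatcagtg
Gabra4: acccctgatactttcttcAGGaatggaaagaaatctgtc
Gabra5: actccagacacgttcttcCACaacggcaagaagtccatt
The capitals read CAC, histidine, in Gabra2, Gabra3 and Gabra5 and AGG, arginine, in Gabra4, whose receptors are known as insensitive to diazepam.

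On chromosome 5, Gabrg1 (70751047 to 70842617, minus strand), Gabra2 (70957597 to 71095849, minus), Gabra4 (71569749 to 71658308, minus) and Gabrb1 (71658113 to 72149037, plus) form a cluster of 4 members within 1.40 Mb. Gabra4 and Gabrb1 run in opposite directions and share 196 bp at their starts, so reads from there cannot be told apart without strand, and the strand setting of the counting is not given in the sources used here. Gabra3 lies at X:72432681-72656848 (minus), Gabra5 at 7:57407672-57510059 (minus, overlapped by genes on the other strand), Gabrb2 at 11:42419757-42629028 (plus) and Gabrd at 4:155384980-155398112 (minus).

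In hippocampus Gabra5 was by far the most abundant member per length, and in prefrontal cortex Gabra3 came first. Hippocampal Gabra5 averaged 65.4 ± 3.64 RPKM with nicotine and 69.7 ± 9.16 RPKM with saline (SD, n = 6 each), and its range overlapped that of no other member in either group. That rank rests on the exon lengths used, 2.97 kb for Gabra5 and 13.84 kb for Gabrb1. Before division by length, Gabrb1 was the higher, at 286 and 259 CPM with nicotine and saline, against 195 and 207 CPM for Gabra5. Cortical Gabra3, a synaptic subunit of deep-layer cortical neurons, averaged 41.4 ± 2.65 RPKM with LPS and 40.5 ± 1.96 RPKM with saline (SD, n = 4 each). Gabra5 followed it in cortex at 33.5 ± 4.96 RPKM with LPS, where the ranges of Gabra3 and Gabra5 overlapped, and at 34.4 ± 0.902 RPKM with saline, where they did not. Gabrg1 was lowest in all 4 groups, at 3.04 ± 0.425 and 3.02 ± 0.340 RPKM in LPS and saline cortex and at 2.53 ± 0.435 and 2.59 ± 0.425 RPKM in nicotine and saline hippocampus. Its range lay below that of every other member in each group.

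The members between those ends were ordered differently in the tissues. In saline cortex Gabrd came next after Gabra5, at 19.1 ± 1.35 RPKM, followed by Gabrb2 at 15.3 ± 2.38, Gabra4 at 13.1 ± 0.896, Gabra2 at 10.3 ± 1.17 and Gabrb1 at 9.58 ± 0.842 RPKM, and the ranges of neighbours in that order overlapped. In LPS cortex the order after Gabra5 was Gabra4 (15.4 ± 1.85), Gabrb2 (15.2 ± 1.96), Gabrd (14.4 ± 2.06), Gabrb1 (8.48 ± 0.966) and Gabra2 (6.45 ± 2.38 RPKM). Among these the gap between Gabrd and Gabrb1 was the one where neighbouring ranges did not overlap. In hippocampus Gabra2, Gabra3 and Gabrb1 lay together at 18.9 ± 2.32, 21.2 ± 1.90 and 20.7 ± 2.33 RPKM with nicotine and at 19.0 ± 1.77, 18.1 ± 1.74 and 18.7 ± 2.63 RPKM with saline. Gabra4, Gabrb2 and Gabrd stood below them, Gabrd at 6.62 ± 1.15 RPKM with nicotine and 7.01 ± 0.416 RPKM with saline, and Gabrd overlapped neither of its neighbours in rank. Set side by side without a test, the mean RPKM of Gabra3, Gabrb2, Gabrg1 and Gabrd was higher in both cortical groups than in either hippocampal group, and that of Gabra2, Gabra5 and Gabrb1 was higher in both hippocampal groups. Library ranges of Gabrb2 and Gabrg1 overlapped between the tissues, and those of the other members named here did not. The neuronal marker Tubb3 and the kinase gene Oxsr1 had 0 counts in all cortical libraries, against 237 and 56.7 CPM in saline hippocampus. The cause of that difference between the tables was not tested.

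**Figure D1:**
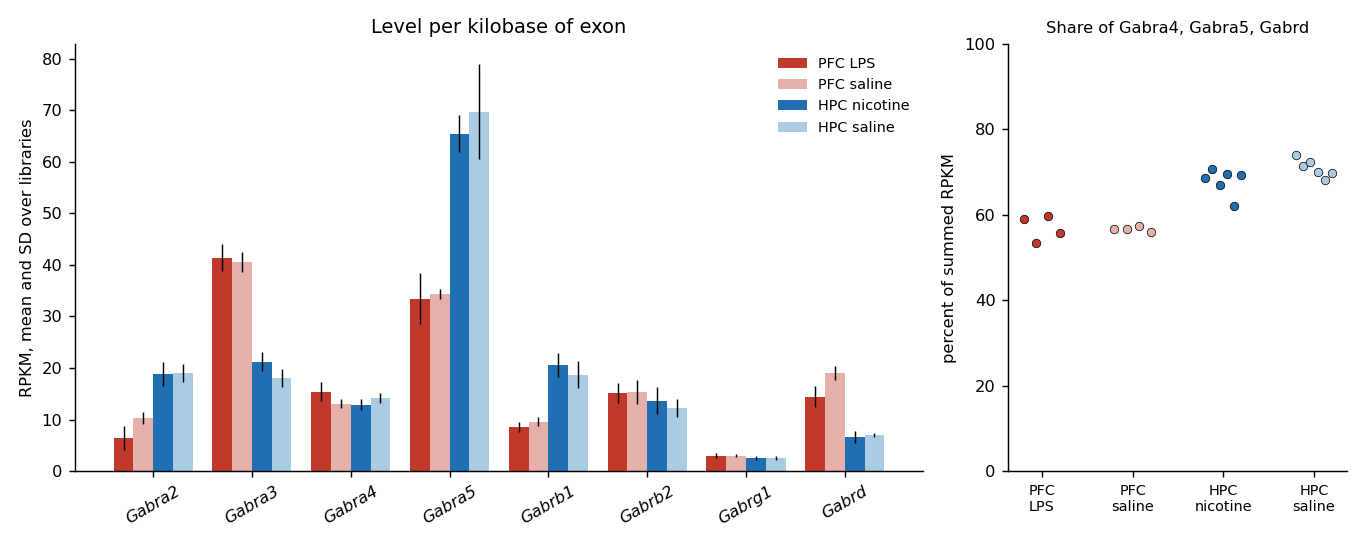
Left, mean RPKM (bars, from 0) with the SD over libraries (lines) of each member in LPS and saline prefrontal cortex (n = 4 each) and nicotine and saline hippocampus (n = 6 each). Right, the percent of the summed RPKM of Gabra2, Gabra3, Gabra4, Gabra5 and Gabrd held by Gabra4, Gabra5 and Gabrd, with 1 point per library; cortical libraries lie between 53.3% and 59.8% and hippocampal libraries between 62.1% and 74.0%.

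The share of extrasynaptic subunit transcripts overlapped between treated and saline libraries of each tissue. Its mean was 57.0% with LPS and 56.7% with saline in cortex, and 67.9% with nicotine and 71.0% with saline in hippocampus. Gabra4, Gabra5 and Gabrd together held 59.1%, 53.3%, 59.8% and 55.7% of the summed RPKM of the alpha2 to alpha5 and delta genes in LPS Samples 2L, 4L, 5L and 7L, against 56.8%, 56.7%, 57.3% and 56.1% in saline Samples 1L, 3L, 6L and 8L. The LPS libraries spread to both sides of the saline ones. In hippocampus the share had a lowest value of 62.1%, a median of 69.0% and a highest of 70.8% with nicotine, against 68.2%, 70.7% and 74.0% with saline. The groups overlapped, and the low nicotine value was that of Sample 8N, where the next lowest was 67.0%. The share rests mainly on Gabra5: without it the means were 38.4 ± 5.19% with LPS and 38.8 ± 1.21% with saline in cortex, and 32.8 ± 3.89% with nicotine and 36.4 ± 1.18% with saline in hippocampus. No test was made of these shares, which describe the chosen members.

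The first comparison asked what LPS did to the cortical transcripts after 24 hours. Of the 8 members, Gabra2 and Gabrd fell and 0 rose at an adjusted p under 0.05 by edgeR's quasi-likelihood test over 17760 genes. Of all genes tested, 19.7% fell and 21.5% rose by the same rule, so the members' 2 falls are a share near the background of this comparison. The median log2 fold change was -0.02 over the members and 0.01 over all genes, and the middle 50% of all genes ran from -0.32 to 0.31. Reads come from bulk tissue, in which fewer cells of a type and less RNA per cell cannot be told apart.

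Gabra2, the synaptic alpha subunit also known from axon initial segments, fell most. It stood at 31.5, 69.3, 36.3 and 59.9 CPM in LPS Samples 2L, 4L, 5L and 7L, against 71.5, 78.5, 91.2 and 72.9 CPM in saline Samples 1L, 3L, 6L and 8L. The LPS libraries were all below the saline ones, Samples 2L and 5L clearly so and Sample 4L narrowly. Means were 49.3 ± 18.2 CPM with LPS and 78.5 ± 8.97 CPM with saline (SD, n = 4 each), a log2 fold change of -0.67 (SE 0.21, edgeR adjusted p = 0.0241). The call ended without LPS Sample 5L (-0.56, adjusted p = 0.0634), saline Sample 3L (-0.68, 0.0514) or saline Sample 6L (-0.60, 0.0632), and it held in the 4 libraries whose labels agree (-0.65, 0.0316).

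Transcripts of striatal projection neurons, which neighbour the dissected region, varied between the same libraries. The summed level of the 12 markers was 1731, 1243, 2036 and 483 CPM in LPS Samples 2L, 4L, 5L and 7L, against 382, 950.2, 1602 and 567 CPM in saline Samples 1L, 3L, 6L and 8L, and 0 of the 12 passed the test. The LPS libraries with most striatal transcripts, 2L and 5L, were those with least Gabra2, while saline Sample 6L had most of both among saline libraries. With the mean striatal level as a covariate Gabra2 kept a log2 fold change of -0.65 (edgeR adjusted p = 0.0299) and Gabrd one of -0.46 (0.00275). Glial markers also changed with LPS, where 19.7% of all genes tested fell and 21.5% rose. Among markers of oligodendrocyte precursors 5 of 6 fell and 1 rose (summed level 105 to 129 CPM with LPS, 166 to 196 CPM with saline). Among those of microglia 4 of 7 fell and 1 rose (325 to 418 CPM with LPS, 452 to 481 CPM with saline), and among those of oligodendrocytes 3 of 7 fell (2532 to 3427 CPM with LPS, 2829 to 3814 CPM with saline). Astrocyte markers moved in both directions, with 4 of 8 lower and 2 higher (3908 to 4793 CPM with LPS, 4068 to 4317 CPM with saline). None of the markers in these 5 lists was at 0 throughout. Neuronal marker lists had calls as well, beside the same shares of all genes, and nothing is read from their counts about neurons. Of 7 markers of excitatory neurons 2 rose and 1 fell (6478 to 8307 CPM with LPS, 5090 to 6884 CPM with saline), and of 7 pan-neuronal markers tested 1 rose and 1 fell (7142 to 7913 CPM with LPS, 6385 to 7343 CPM with saline). Lists named for hippocampal neurons, whose genes were also read in cortex, gave 1 of 10 higher and 4 lower for dentate granule cells (335 to 394 CPM with LPS, 401 to 478 CPM with saline). They gave 2 of 5 tested higher and 0 lower for CA1 (506 to 617 CPM with LPS, 416 to 465 CPM with saline), and 1 of 5 tested higher and 3 lower for CA3 (158 to 259 CPM with LPS, 224 to 261 CPM with saline). The part of glial or neuronal composition in the falls of Gabra2 and Gabrd was not tested.

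Gabrd, the delta subunit of tonic receptors, fell in all settings that kept the grouping by column name. It stood at 48.8, 37.6, 43.5 and 35.8 CPM in LPS Samples 2L, 4L, 5L and 7L, against 54.2, 58.9, 56.9 and 49.9 CPM in saline Samples 1L, 3L, 6L and 8L. The groups did not overlap, although the highest LPS library, Sample 2L, came close to the lowest saline library, Sample 8L. Means were 41.5 ± 5.93 CPM with LPS and 55.0 ± 3.88 CPM with saline (SD, n = 4 each), a log2 fold change of -0.41 (SE 0.10, edgeR adjusted p = 0.00851). With the libraries grouped by title, which called 0 of all genes by edgeR (201 at an unadjusted p under 0.05), Gabra2 was at 0.055 and Gabrd at -0.10 (adjusted p = 1.00 each). Gabra2 and Gabrd were the members whose groups did not overlap, both with LPS lower, which held for 17.9% of all genes tested, while 19.2% did not overlap with LPS higher.

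Gabra4, the partner of delta in many tonic receptors, had a higher mean with LPS that did not pass the test. It stood at 108.9, 88.6, 94.4 and 82.7 CPM in LPS Samples 2L, 4L, 5L and 7L, against 72.2, 85.4, 80.1 and 80.7 CPM in saline Samples 1L, 3L, 6L and 8L. The lowest LPS library fell within the saline range and the others lay above it. The log2 fold change was 0.23 (SE 0.09, unadjusted p = 0.0240, edgeR adjusted p = 0.0563), and without LPS Sample 7L it was 0.28 and passed the test (adjusted p = 0.0295).

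Gabrb1, a beta subunit, stood at 132, 119.5, 118 and 99.7 CPM in LPS Samples 2L, 4L, 5L and 7L, against 128, 129, 124 and 149.7 CPM in saline Samples 1L, 3L, 6L and 8L. Groups overlapped through LPS Sample 2L, the highest of its group. The log2 fold change was -0.18 (SE 0.09, edgeR adjusted p = 0.151), and without LPS Sample 2L it was -0.24 and passed (adjusted p = 0.0457).

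The other 4 members gave cortical log2 fold changes from -0.04 to 0.03. Gabra3 averaged 162 ± 10.4 CPM with LPS and 159 ± 7.69 CPM with saline (log2 fold change 0.03, SE 0.07). Gabra5 averaged 99.5 ± 14.7 CPM with LPS and 102 ± 2.68 CPM with saline (-0.04, SE 0.09), with LPS libraries ranging from 85.8 to 119 CPM around a narrow saline range of 99.7 to 106 CPM. Gabrb2, the main beta partner of many synaptic receptors, averaged 96.7 ± 12.5 CPM with LPS and 97.5 ± 15.1 CPM with saline (-0.01, SE 0.12). Gabrg1, a gamma subunit of low abundance, averaged 23.9 ± 3.34 CPM with LPS and 23.7 ± 2.67 CPM with saline (0.01, SE 0.12). Adjusted p-values of these 4 genes lay between 0.744 and 0.953 by edgeR, and their groups overlapped.

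**Figure D2:**
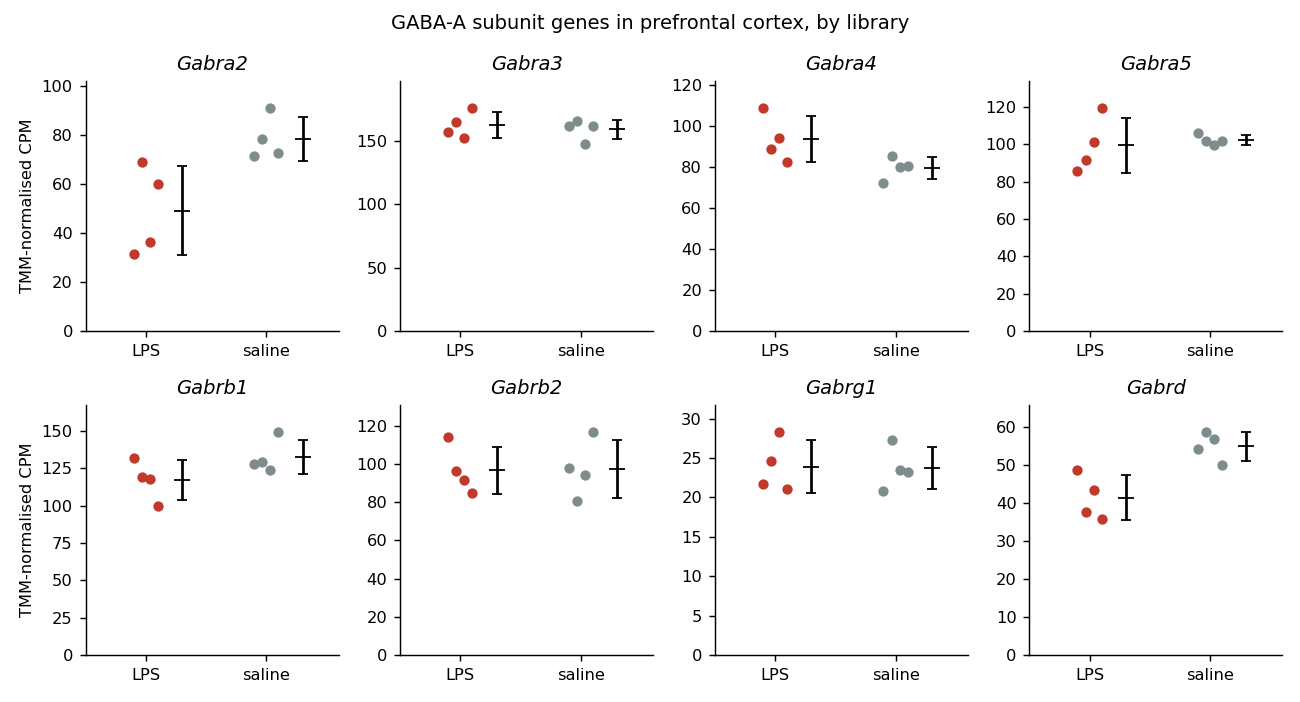
TMM-normalised CPM of each member in the LPS (red) and saline (grey) prefrontal cortex libraries, 1 point per library, with the mean and SD beside each group (n = 4 each). Gabra2 and Gabrd are the 2 genes whose LPS points all lie below the saline points.

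The members of the chromosome 5 cluster had fitted changes of both signs, and differences between the members were not tested. From Gabrg1 through Gabra2 and Gabra4 to Gabrb1 the log2 fold changes with LPS were 0.01, -0.67, 0.23 and -0.18, and 1 of the 4, Gabra2, passed the test. The windows of 250 bases upstream of the starts of Gabra2 and of its neighbour Gabrg1, from RefSeq on GRCm38.p6 and written 5′ to 3′ along the gene (minus strand), are shown for this contrast. Capitals mark a GC box (GGGCGG) and a CCAAT box, here read on the other strand as ATTGG.
Gabra2, chr5:71095850-71096099: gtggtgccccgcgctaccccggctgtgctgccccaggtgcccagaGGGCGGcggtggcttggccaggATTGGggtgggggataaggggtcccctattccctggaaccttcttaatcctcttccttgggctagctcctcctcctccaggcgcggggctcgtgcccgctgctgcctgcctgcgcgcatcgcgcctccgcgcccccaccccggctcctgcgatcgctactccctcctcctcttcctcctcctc
Gabrg1, chr5:70842618-70842867: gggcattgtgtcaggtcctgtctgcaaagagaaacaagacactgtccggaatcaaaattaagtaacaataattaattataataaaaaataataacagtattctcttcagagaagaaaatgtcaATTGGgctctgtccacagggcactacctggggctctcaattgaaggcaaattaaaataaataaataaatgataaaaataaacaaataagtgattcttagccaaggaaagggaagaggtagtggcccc
The Gabra2 window is 70.0% G or C and holds 1 GC box and 1 CCAAT box, and the Gabrg1 window is 35.6% G or C and holds 1 CCAAT box. Over 32851 windows of the same length, on both strands, 32.7% held GGGCGG and 33.8% held CCAAT, and 53.2% of all bases were G or C. Neither window held TATAAA, present in 12.4% of windows, or the cAMP response element TGACGTCA, present in 1.5%. Of the cluster's other members, whose windows are not shown, Gabra4 has one of 61.2% G or C with 2 GC boxes and 1 CCAAT box. The windows of Gabrb1, at 2 starts, are 64.4% and 50.8% G or C and hold none of these motifs. The motifs were not tested against the change in expression. RefSeq windows matched 7 of the 8 members.

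The second comparison asked what nicotine did to the hippocampal transcripts after 24 hours. By edgeR's quasi-likelihood test 0 of the 8 members, and 0 of the 18873 genes tested (0%), passed an adjusted p of 0.05, DESeq2 called 12 genes, none of them a member, and limma-voom called 0. At an unadjusted p under 0.05 there were 1577 genes (8.36% of those tested) and, among the members, Gabra3 and Gabra4. The median log2 fold change was -0.02 over the members and 0.0028 over all genes. No member had groups that did not overlap, which held for 0.387% of all genes tested.

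Gabra3 had the lowest p of the members. Its lowest, median and highest values were 72.8, 84.6 and 94.2 CPM with nicotine, against 59.1, 71.4 and 77.6 CPM with saline. The groups overlapped through nicotine Sample 11N, the lowest of its group, and the upper saline libraries. Means were 83.4 ± 7.44 CPM with nicotine and 70.8 ± 6.82 CPM with saline (SD, n = 6 each), a log2 fold change of 0.23 (SE 0.07, unadjusted p = 0.00635, edgeR adjusted p = 0.555), and over all alternatives it lay between 0.19 and 0.27 with adjusted p-values from 0.261 to 0.862. In cortex the same gene had moved by 0.03 with LPS.

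Gabra4 had a lowest, median and highest value of 70.5, 78.8 and 87.6 CPM with nicotine, against 79.6, 84.8 and 93.2 CPM with saline. Its log2 fold change was -0.14 (SE 0.06, unadjusted p = 0.0438, edgeR adjusted p = 0.587), and the upper nicotine libraries lay within the saline range. Markers of dentate granule cells, where alpha4 is best known, had lower means with nicotine in the same libraries, without passing the test. Their summed level was 405 to 704 CPM with nicotine and 581 to 838 CPM with saline, and none was at 0. Of the 10, 0 passed the adjusted threshold and 7 had an unadjusted edgeR p under 0.05, beside 8.36% of all genes tested. The list was chosen with earlier results of these data known, so the count is no independent support. With the mean dentate level as a covariate the change of Gabra4 was -0.0025 (adjusted p = 0.988). The dentate list had a median log2 fold change of -0.32 with nicotine, so this covariate and the treatment are not separate in that fit. Gabrd, named above with alpha4 for dentate granule cells, had a change of -0.08 without a covariate (SE 0.10, edgeR adjusted p = 0.824). Over all alternatives, the dentate covariate among them, the change of Gabrd lay between -0.16 and -0.03. The part of dentate content in the change of either gene was not tested. The same covariate moved Gabrb2 to 0.38 (adjusted p = 0.452), Gabrb1 to 0.26 (0.467) and Gabrg1 to -0.25 (0.479), none of which passed.

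Gabra5, the member best known from hippocampus, ran through 179.7, 195.5 and 207 CPM (lowest, median and highest) with nicotine, against 176, 207 and 242 CPM with saline. The nicotine libraries lay inside the saline range, and the log2 fold change was -0.09 (SE 0.08, edgeR adjusted p = 0.753). Gabra2 ran through 127, 141 and 177 CPM with nicotine, against 126, 146 and 159 CPM with saline (-0.01, SE 0.08, adjusted p = 0.979).

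Gabrb1 ran through 257, 273 and 332 CPM with nicotine, against 189.9, 272 and 292 CPM with saline (0.14, SE 0.10, edgeR adjusted p = 0.704). Gabrb2 ran through 68.2, 81.7 and 109 CPM with nicotine, against 57.4, 80.5 and 88.9 CPM with saline (0.16, SE 0.12, adjusted p = 0.720). The beta genes shared a low saline library, Sample 2N, without which the changes were 0.07 and 0.09. Gabrd ran through 15.4, 18.9 and 24.0 CPM with nicotine, against 18.7, 20.1 and 21.5 CPM with saline (-0.08, SE 0.10, adjusted p = 0.824), and its nicotine values lay on both sides of the saline range. Gabrg1 ran through 16.6, 19.6 and 26.3 CPM with nicotine, against 17.8, 18.5 and 25.6 CPM with saline (-0.03, SE 0.12, adjusted p = 0.962).

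**Figure D3:**
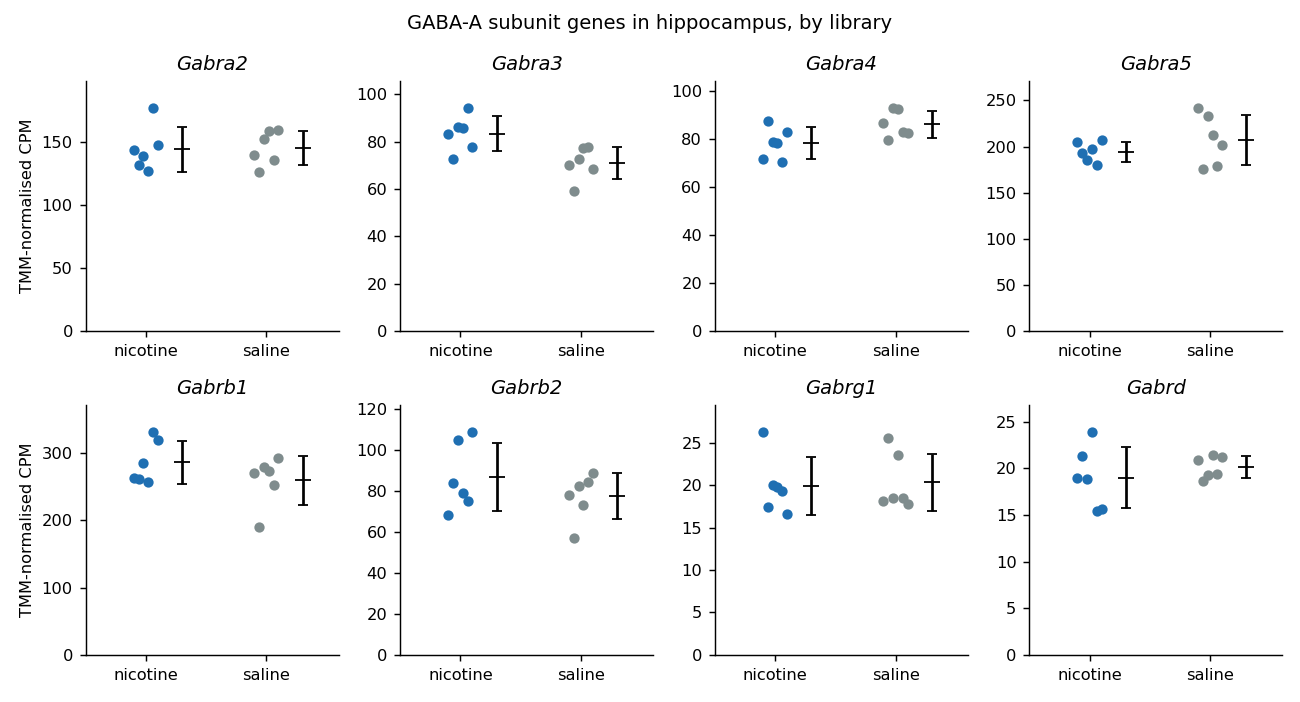
TMM-normalised CPM of each member in the nicotine (blue) and saline (grey) hippocampal libraries, 1 point per library, with the mean and SD beside each group (n = 6 each). All 8 genes overlap between groups, and a single saline library lies at the bottom for Gabrb1 and Gabrb2.

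**Figure D4:**
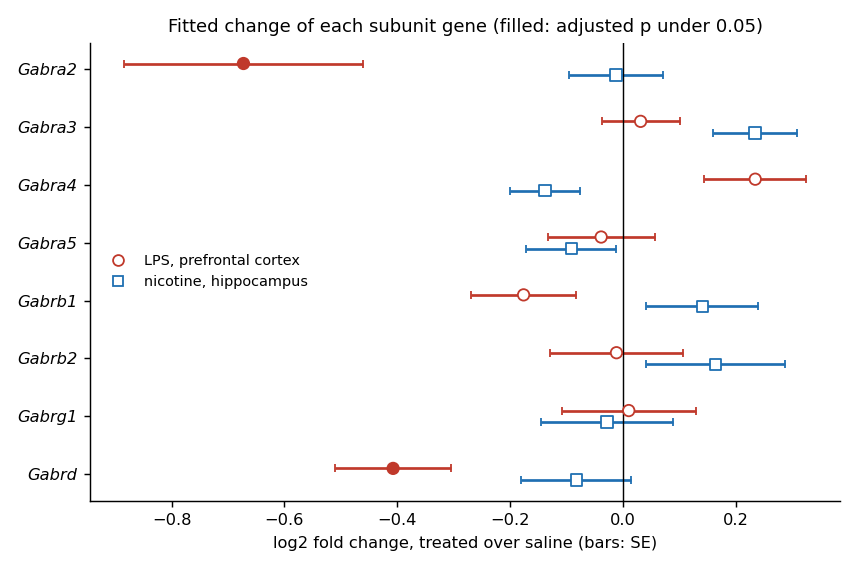
Log2 fold change of each member with its SE for LPS over saline in prefrontal cortex (red circles) and nicotine over saline in hippocampus (blue squares), from edgeR fits over all genes of each tissue. Filled symbols mark an adjusted p under 0.05, which Gabra2 (-0.67) and Gabrd (-0.41) reached with LPS.

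Single hippocampal libraries stood apart across several members. Saline Sample 2N had the lowest saline value of Gabra2, Gabra3, Gabra4, Gabra5, Gabrb1, Gabrb2 and Gabrd and the highest of Gabrg1, at 25.6 CPM against 17.8 to 23.6 CPM in the other saline libraries. The summed level of 8 neuronal markers was 5092 CPM in that library and 6030 to 6548 CPM in the other saline libraries, while its oligodendrocyte markers summed to 7829 CPM against 2464 to 5472 CPM. Nicotine Sample 10N had the highest Gabrg1 of its group (26.3 CPM, others 16.6 to 20.1 CPM), the lowest Gabrb2 (68.2 CPM) and the lowest dentate granule markers (405 CPM, others 513 to 704 CPM). Choroid plexus markers, which come from tissue beside the hippocampus, summed to 61.7 to 2366 CPM with nicotine and 45.2 to 4031 CPM with saline, with nicotine Samples 10N and 11N and saline Samples 2N and 5N highest in their groups. None of the markers in these lists was at 0 throughout. With the choroid plexus level as a covariate no member passed, and the changes ran from -0.14 for Gabra4 to 0.23 for Gabra3. No member passed without Sample 2N either, where Gabrb1 was at 0.07, Gabrb2 at 0.09 and Gabrg1 at 0.05.

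**Figure D5:**
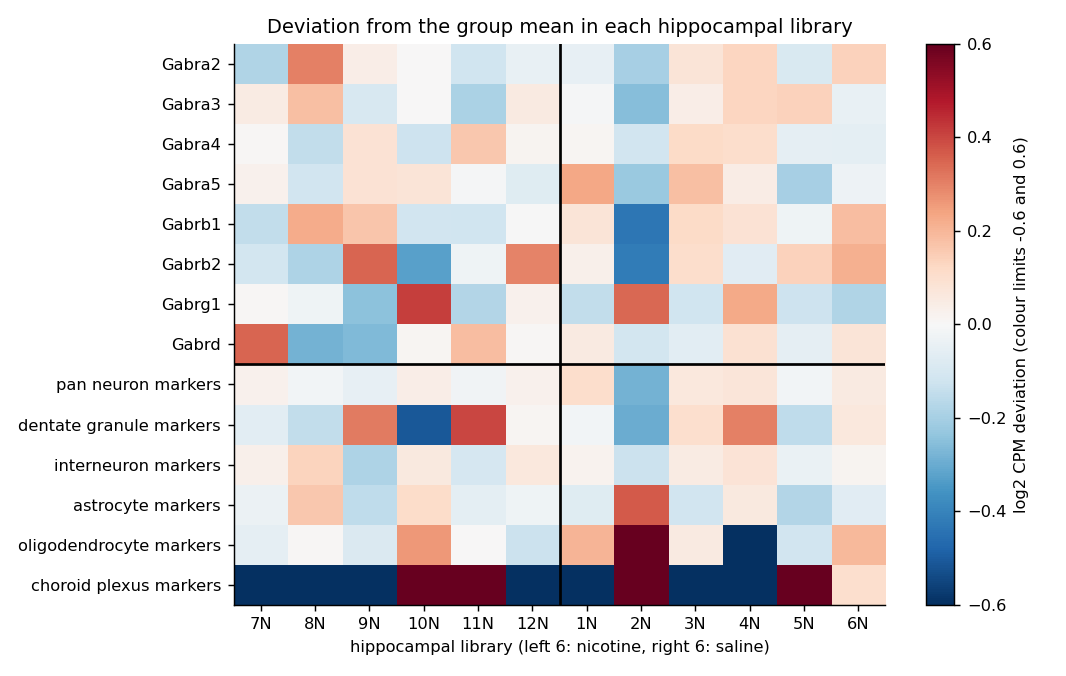
Deviation of log2 CPM from the group mean for the 8 members and the mean of 6 marker lists in each hippocampal library, nicotine libraries left and saline libraries right, with colours limited at -0.6 and 0.6. Saline Sample 2N is below its group mean for neuronal markers and for every member but Gabrg1.

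The genes whose hippocampal pattern was most like that of each member differed from member to member. Likeness was Pearson's r of log2 CPM deviations from the group means over the 12 libraries, among 11722 genes with a mean of at least 5 CPM, and it is a description, since the libraries share their dissection and cell composition. Nearest to Gabra2 were Dlk1, Hap1 and Coro2b (r = 0.93 each), of which Hap1 encodes a huntingtin-associated trafficking protein that was also in the scaffold list. Nearest to Gabra3 were Anxa7, Asic1 and Blcap (0.96, 0.95 and 0.95), and nearest to Gabra4 were Net1, Sybu and Mcm6 (0.94, 0.94 and 0.92). Gabra5 ran with Chn1, Fam131a and Ppp3ca (0.97, 0.95 and 0.91), the last of which encodes the catalytic subunit of calcineurin. Gabrb1 ran with Camta1, Tacc2 and Foxj3 (0.98, 0.97 and 0.97) and Gabrb2 with Insr, Stxbp5l and Ddx6 (0.97, 0.96 and 0.96). Gabrg1 ran with Mrpl13, Polr2f and Uqcr11 (0.97, 0.96 and 0.96), which encode proteins of the mitochondrial ribosome, of RNA polymerase II and of respiratory complex III. Gabrd had the weakest nearest genes, Abtb1, Preb and Gtf2h4 (0.89, 0.89 and 0.88).

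Around the receptor, single genes of GABA handling changed with LPS. Of 8 genes for synthesis, loading, uptake and breakdown of GABA, 3 fell, 1 rose and 4 did not pass (median log2 fold change -0.15, against 0.01 over all genes). Of all genes tested 19.7% fell and 21.5% rose, and nothing is read from the count about the list. Gad1, which makes most of the brain's GABA, averaged 538 ± 169 CPM with LPS and 827 ± 136 CPM with saline (-0.62, SE 0.19, edgeR adjusted p = 0.0229). Its call ended in the 4 libraries whose labels agree (-0.16, adjusted p = 0.455) and without LPS Sample 4L (-0.58, 0.0636) or saline Sample 6L (-0.52, 0.0646). The GABA transporter genes Slc6a13 (-1.30, SE 0.24, edgeR adjusted p = 0.00134) and Slc6a11, the astrocytic one (-0.61, SE 0.18, 0.0184), also fell. Slc6a11 lost its call without LPS Sample 4L (0.0521) and in the 4 libraries with agreeing labels (-0.27, 0.209). Interneuron markers, which include Gad1, split, with 2 of 10 up and 2 down (summed level 1173 to 1748 CPM with LPS, 1630 to 2258 CPM with saline, none at 0), and their part in the change of Gad1 was not tested.

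Of 22 genes for assembly, trafficking and anchoring of the receptor, 6 rose, 4 fell and 12 did not pass (median 0.07; 21.5% of all genes rose and 19.7% fell). Shisa7, an auxiliary protein of GABA-A receptors, averaged 208 ± 15.0 CPM with LPS and 155 ± 15.3 CPM with saline (0.42, SE 0.08, edgeR adjusted p = 0.00224). Gabarap, a receptor-associated trafficking protein (-0.33, SE 0.07, 0.00383), and Insyn1, a protein of inhibitory synapses (-0.31, SE 0.07, 0.00638), fell, and Insyn1 had no call in the 4 libraries with agreeing labels (-0.25, 0.129). Gphn, the gene of gephyrin, averaged 147 ± 33.5 CPM with LPS and 171 ± 18.6 CPM with saline and did not pass (-0.21, SE 0.14, 0.228), although without LPS Sample 5L, its highest LPS library, it did (-0.39, 0.00870).

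Of 6 genes of the metabotropic GABA-B receptor, 2 rose, 1 fell and 3 did not pass (median 0.20; 21.5% and 19.7% over all genes). Kctd12, an auxiliary subunit that speeds desensitisation, averaged 71.0 ± 9.23 CPM with LPS and 117 ± 3.37 CPM with saline (-0.72, SE 0.09, edgeR adjusted p = 0.000129). Gabbr2, which couples the receptor to G proteins (0.37, SE 0.09, 0.00877), and the auxiliary subunit gene Kctd8 (0.64, SE 0.17, 0.0119) rose, and Gabbr2 missed the threshold in the 4 libraries with agreeing labels (0.35, 0.0651). Of 8 genes tested that set or regulate neuronal chloride, 1 rose, the kinase gene Wnk2 (0.47, SE 0.08, 0.000608), and 7 did not pass (median 0.10; 21.5% of all genes rose and 19.7% fell), among them Slc12a5, the chloride extruder of mature neurons (-0.05, SE 0.09, 0.696).

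Of 7 genes tested in the list named for neurosteroid synthesis, 2 rose, 2 fell and 3 did not pass (median 0.36; 21.5% of all genes rose and 19.7% fell). Akr1c14, which encodes the last enzyme on the way to allopregnanolone, had the largest change of the 6 lists. It stood at 0.0960, 0.0704, 0.0517 and 0.0256 CPM in LPS Samples 2L, 4L, 5L and 7L, against 1.10, 1.08, 0.993 and 0.356 CPM in saline Samples 1L, 3L, 6L and 8L. Every LPS library was below every saline library, although the LPS values rest on 1 to 4 counts per library, and the log2 fold change was -3.77 (SE 0.51, edgeR adjusted p = 0.000207). Srd5a3 (0.59, SE 0.11, 0.00187) and the side-chain cleavage enzyme gene Cyp11a1 (0.66, SE 0.18, 0.0130) rose, the second without a call in the 4 libraries with agreeing labels (0.62, 0.107). Srd5a1, a steroid 5-alpha-reductase gene named after its values were seen, fell (-0.56, SE 0.19, 0.0356).

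Of 8 other subunit genes tested, 3 rose, 1 fell and 4 did not pass (median 0.22; 21.5% and 19.7% over all genes). Gabrr2, a rho subunit gene, averaged 3.49 ± 0.749 CPM with LPS and 0.463 ± 0.358 CPM with saline (2.89, SE 0.42, edgeR adjusted p = 0.000351). Gabrr3, another rho gene, named after its values were seen, averaged 0.965 ± 0.0998 CPM with LPS and 0.473 ± 0.148 CPM with saline (1.02, SE 0.29, 0.0159). In hippocampus 0 genes of any of these 6 lists passed with nicotine. At an unadjusted p under 0.05 there were 2 of 9 other subunit genes, 1 of 21 scaffold genes, 2 of 8 genes of GABA handling, 1 of 9 chloride genes, 0 of 6 GABA-B genes and 0 of 7 neurosteroid genes, beside 8.36% of all genes tested. Gad1 averaged 310 ± 21.6 CPM with nicotine and 299.8 ± 28.9 CPM with saline there (0.05, SE 0.07, adjusted p = 0.863). Gphn spread widely in hippocampus, through 258, 450 and 1148 CPM (lowest, median and highest) with nicotine, against 403, 574 and 797 CPM with saline (-0.09, SE 0.28, edgeR adjusted p = 0.943).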

How the data were processed

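RNA was extracted with TRIzol, and the Universal Plus mRNA-Seq kit was used for poly(A)-selected libraries, per the labels' protocols. The authors deposited raw gene counts with no normalization, in 1 table per tissue. fastp, STAR, featureCounts, DESeq2 and build mm10 are named without versions or roles, per the submitters' processing notes (annotation and strand setting: not given in the sources). Of the 57180 hippocampal identifiers, 51933 matched genes of GENCODE vM21, and exon lengths and coordinates come from GENCODE vM21 on GRCm38, which is mm10.

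Separate fits for the tissues used edgeR 4.0.16 under R 4.3.3, with TMM factors, filterByExpr and its quasi-likelihood test. P-values were adjusted over all genes tested (Benjamini-Hochberg, threshold 0.05). They set the difference between groups against the spread between libraries, which the titles number as biological replicates. SEs are the log2 fold change over the root of the F statistic. The tables' count columns all belong to these libraries. No pair of libraries in a group agreed within sampling noise (chi-square per degree of freedom 11.0 to 114 over genes with at least 20 counts). Intervals from counting are narrow at 768 or more counts per member and library, so the spread between libraries limits the precision.

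The named genes are the 8 members, up to 3 genes per pathway list with the smallest p past the threshold in cortex, Gad1, Gphn and Slc12a5 by name, and the 3 nearest genes of each member. The pathway lists were other subunits, scaffold, GABA handling, GABA-B, chloride and neurosteroid. The members and lists were chosen with earlier results of these data known. Some genes that the rule names are not reported here. Nov had no row under that symbol in either table, and Insyn2a none in the hippocampal one.

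Alternatives were DESeq2 1.42.0, limma-voom (limma 3.58.1), RLE and upper-quartile factors, no filter or a filter of 1 CPM on low counts, the leaving out of single libraries, a replicate block, grouping by title, the 4 libraries with agreeing labels, and marker covariates. DESeq2 left 7806 adjusted p-values missing in cortex and 18027 in hippocampus, which stayed missing.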

Additional observations from a re-analysis of the deposited data

Results flagged for a closer look

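The 8 members, Gad1, Gphn and Slc12a5, and the extrasynaptic share were looked at in each of the 4 groups for a library far from the rest of its group, 48 sets of values in all. A library was marked when its gap to the nearest other one, over the whole range of its group, passed Dixon's 95% critical value. Chance marks about 1 in 20 such sets, and 3 of 48 were marked.

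Gabrg1, the gamma subunit gene of low abundance, stood at 26.3 CPM in nicotine Sample 10N, and the other nicotine libraries ran from 16.6 to 20.1 CPM. In the same library dentate granule markers were the lowest of the nicotine group. Gphn, the gephyrin gene, stood at 197 CPM in LPS Sample 5L of prefrontal cortex, and the other LPS libraries ran from 125 to 136 CPM. Slc12a5, the chloride extruder gene, stood at 289 CPM in saline Sample 2N of hippocampus, and the other saline libraries ran from 451 to 481 CPM, in a library that also had the lowest neuronal markers of its group.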

How the results depend on the processing

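Grouping the prefrontal cortex libraries by title in place of column name gave 0 higher and 0 lower genes and 0 members lower (201 genes at an unadjusted p under 0.05; 3811, 3502 and 2 by column name), and the cause was not tested. By title the direction turned for Gabra2 (0.055), Gabra3 (-0.024), Gabra4 (-0.072), Gabra5 (0.13), Gabrr2 (-0.16), Insyn1 (0.068), Slc6a11 (0.33), Gabbr2 (-0.0082), Kctd8 (-0.081), Srd5a3 (-0.0084), Cyp11a1 (-0.046), Gad1 (0.46), Gphn (0.14) and Slc12a5 (0.11). Gabra3 (-0.0034), Gabra5 (0.079) and Slc12a5 (0.056) turned in the 4 libraries with agreeing labels, without a call. So did Gabrg1 in cortex with upper-quartile factors (-0.0042), without a filter (-0.0048) and with the striatal covariate (-0.039), and Gabra2 in hippocampus with the dentate covariate (0.018). Leaving out 1 library at a time gave 2878 to 4327 higher and 2825 to 4154 lower genes in cortex, with 0 to 1 members higher and 1 to 3 lower. In hippocampus it gave 0 higher genes, 0 to 1 lower genes (1 without nicotine Sample 11N) and 0 members. Genes without a call changed direction in such fits: cortical Gabra3 ran from -0.017 to 0.054, Gabra5 from -0.15 to 0.026, Gabrb2 from -0.10 to 0.082 and Gabrg1 from -0.089 to 0.074, and hippocampal Gabra2 from -0.077 to 0.025, Gabrg1 from -0.12 to 0.047, Gphn from -0.45 to 0.055 and Slc12a5 from -0.016 to 0.12. DESeq2 called 7 higher and 5 lower genes in hippocampus, where edgeR called 0, and the cause was not tested. The extrasynaptic share on the CPM scale was 52.7% with LPS and 49.9% with saline in cortex and 56.3% with nicotine and 59.2% with saline in hippocampus. Without Gabra5 it was 38.4% with LPS and 38.8% with saline in cortex and 32.8% with nicotine and 36.4% with saline in hippocampus. Title numbers did not pair the libraries. Between same-numbered treated and saline libraries, log2 CPM deviations from the group means correlated at -0.16 to -0.03 in cortex. In hippocampus these deviations correlated at -0.17 to 0.44, and 1 of the 6 numbers was its own best match. With that number as a replicate block 3144 genes rose and 2920 fell in cortex, with 2 members lower, and 0 genes were called in hippocampus; Gad1 alone among the named genes fitted this way changed its call (-0.66, edgeR adjusted p = 0.0596). Apart from the grouping by title, Gabrd passed in 17 of 17 alternatives and Gabra2 in 14 of 17. Member SEs of 0.06 to 0.21 limit which log2 changes can be told from 0.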
